A study of Mus musculus with 76 samples.

Results

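The zinc finger genes described here are the mouse genes whose symbols run from Zfp500 to Zfp999. They were taken by symbol alone, from the gene annotation of build GRCm38 that matches the deposited identifiers, which gave 207 of the 38924 genes of the deposited table. No measured value entered the choice. Of the 207 members, 203 were annotated as protein coding, 2 had no read in any library, and 6 were too low to be tested in any comparison (Zfp572, Zfp616, Zfp648, Zfp683, Zfp735 and Zfp967).

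Most genes of this numbering encode proteins with arrays of C2H2 zinc fingers, which bind DNA in a sequence-specific way. Many also carry a KRAB domain, which recruits the corepressor TRIM28 (KAP1) and, through it, the histone methyltransferase SETDB1 and HP1 proteins. In mouse embryonic stem cells this machinery is known for silencing endogenous retroviruses and other transposable elements, and KRAB zinc finger genes lie in chromosomal clusters that evolve quickly and differ between mouse strains. Members without a KRAB domain have more diverse roles, among them neural differentiation, ribosome assembly and fat cell biology.

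RNA-seq libraries came from whole neural cultures derived from embryonic stem cells of C57BL/6J (B6), the reference laboratory strain, and of WSB/EiJ (WSB), a wild-derived strain. Cultures were either controls or given ID-8, a compound that blocks the kinase DYRK1A. The stages were differentiating neural progenitor cells (NPC), maturation, and a later stage at which axons were cut (axotomy) or left uncut (axon stage). The 16 groups were B6 control, B6 ID-8, WSB control and WSB ID-8 at the NPC stage (6 libraries each) and at maturation (4 each), and the same 4 in uncut and in cut form at the axon stage (4 each, but 3 for WSB ID-8 uncut and for B6 ID-8 cut). No genetic modification is given in the labels, nor the ID-8 dose, the days of culture or the number of stem cell lines per strain. The p-values below therefore measure the spread between libraries, which may be partly technical.

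The 70 libraries held 20.37 M to 131.49 M expected counts, with a median of 37.42 M. Levels are given as CPM, counts relative to the scaled library total. The counts carry no molecular identifiers, so precision is that of reads. The cultures were mixed. The summed level of 8 astrocyte markers rose from a mean of 256 CPM in control B6 NPC cultures to 2852 at maturation, and the summed level of the fibroblast markers from 151 to 865 CPM. Neuronal markers were high at every stage, with mean sums of 1573 to 5849 CPM over the groups. The pluripotency list (Pou5f1, Nanog, Utf1, Zfp42, Dppa3, Dppa5a, Tdgf1, Esrrb, Klf4 and Tdh) was present at the NPC stage. In a bulk culture, fewer cells of a type and less RNA per cell cannot be told apart.

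The library labelled replicate 3 of cut WSB axon cultures with ID-8 went against its label. Over 8 members chosen from those called in most strain comparisons, it lay within the range of the B6 libraries in all 8. The library lay outside the range of the other WSB libraries in 7, Zfp963 being the exception. Zfp612, Zfp541 and Zfp982, called in as many comparisons as Zfp951 among the 8, were not checked. For Zfp963 and Zfp949 the B6 and other WSB axon libraries overlapped, and Zfp965 and Zfp973 are near copies. Its Zfp738 level was 22.6 CPM, against 20.5 to 31.8 CPM in the 15 B6 axon libraries and 0.128 to 0.509 CPM in the 14 other WSB axon libraries. Its Zfp773 level was 7.16 CPM, against 4.55 to 8.37 CPM in B6 and 0.249 to 0.985 CPM in the other WSB libraries, and its Zfp560 level was 5.61 CPM, against 4.85 to 7.42 and 7.95 to 12.2 CPM. Since all axon libraries share 1 estimate of the spread, axon counts, and the axon values of single members that the text gives in full, stand with and without it.

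The translated coding sequences held a KRAB A-box signature in 95 of the 207 members. Members with the signature had a median of 12 C2H2 fingers and the 112 without it a median of 8. At least 1 finger was found in 195 members and 10 or more in 114. The signature is strict, so a member without it may still carry a KRAB domain. Chains of 5 or more members with starts at most 500 kb apart formed 10 clusters, which held 87 members, 59 of them with the signature. The largest cluster, on chromosome 4 (bases 145510759 to 147848366, GRCm38), held 18 members, and a cluster of 14 members lay on chromosome 17 (bases 21383748 to 22867134). All members of both carried the signature.

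Sequence shared between paralogs limits how finely some members can be told apart. Of the 207, 136 shared under 5% of their 50-base transcript windows with another gene, 47 shared 5 to 50% and 24 over 50%. The chromosome 4 cluster was the most alike of the 10 clusters, with a median of 68% of windows shared, against 0 to 6.20% in the other 9. The split of reads between its members is therefore uncertain, and its summed level is given beside single genes.

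Detection of the members was broad. Of the 207, 153 reached 1 CPM in every library, 44 in some libraries and 10 in none. Per kilobase of exon, the highest mean level of any member in control B6 cultures was that of Zfp706, a small zinc finger protein studied in stem cell self-renewal, at 33.9 CPM per kb at the NPC stage, 29.5 at maturation and 41.3 in uncut axon cultures. In control WSB cultures at maturation, Zfp970 led with 51.7 CPM per kb, ahead of Zfp706 at 33.4.

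The summed level of all members was highest at the NPC stage. It was 5674 ± 685 CPM (SD, n = 6) in control B6 and 5999 ± 444 CPM (n = 6) in control WSB NPC cultures. At maturation it was 3453 ± 170 CPM (n = 4) and 3258 ± 90.0 CPM (n = 4), and in uncut axon cultures 4212 ± 57.5 CPM (n = 4) and 4047 ± 240 CPM (n = 4). Every control NPC library, with a lowest value of 4642 CPM, lay above every control library of the other stages, with a highest value of 4352 CPM. The numbered neighbours Zfp1 to Zfp499, 165 genes, had the same order, with mean sums of 6102, 4116 and 4509 CPM in control B6 cultures of the NPC, maturation and uncut axon groups.

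**Figure D1:**
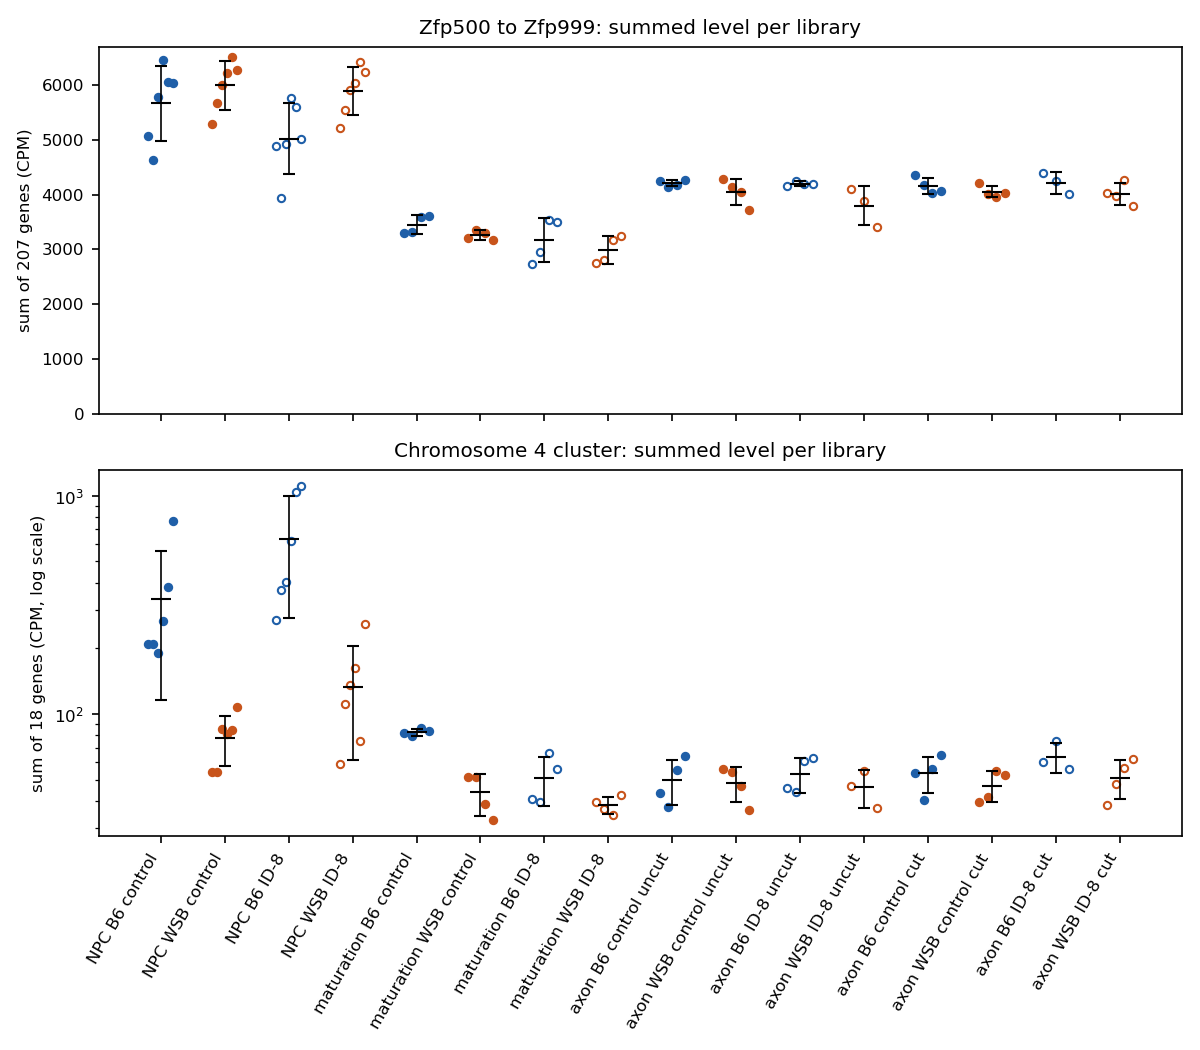
Summed level per library in CPM of all 207 members (upper panel) and of the 18 members of the chromosome 4 cluster (lower panel, log scale) in the 16 groups. Points are libraries (blue B6, orange WSB, filled control, open ID-8), bars are mean ± SD; in the upper panel every control NPC library (4642 CPM or more) lies above every control library of the other stages (4352 CPM or less), while 1 ID-8 library of B6 NPC cultures reads 3931 CPM. In the lower panel every B6 NPC library (191 CPM or more) lies above every maturation and axon library (86.2 CPM or less), the WSB NPC libraries start at 54.3 CPM, and 1 control B6 library at 764 CPM stands above the other 5 (191 to 379 CPM).

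Between the NPC and the axon stage most of the members that changed fell. These stages were compared in control cultures prepared in the same library block (3 NPC and 4 uncut axon libraries in B6, 3 and 3 in WSB). Replicate 4 of the uncut control WSB cultures, from another block, was not in these tests. Its value stands last where 4 are printed. In B6, 95 of 197 members tested fell and 21 rose at an adjusted p under 0.05 (edgeR quasi-likelihood test, Benjamini-Hochberg over all genes), while 33.3% of all genes tested fell and 30.3% rose. In WSB, 95 fell and 22 rose, against 29.7% and 29.1% of all genes. The median difference over members was -0.39 (log2) in B6 and -0.48 in WSB, and 47 and 52 members fell 2-fold or more. The fall was not particular to these numbers, since 74 of 164 genes of Zfp1 to Zfp499 fell in B6 and 73 in WSB, with 17 and 9 that rose.

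Maturation gave the same picture against the NPC stage, although these stages came from different library blocks, so that stage and library preparation cannot be told apart. In B6, 53.2% of 201 members fell and 18.9% rose, against 35.1% and 36% of all genes, and in WSB 63.7% fell and 13.4% rose, against 34.2% and 37.8%. The median member difference was -0.47 in B6 and -0.74 in WSB. Of the genes of Zfp1 to Zfp499, 83 of 164 fell and 26 rose in B6.

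The strains shared most stage calls. Between NPC and axon cultures, 75 members fell in both, which is 78.9% of either list of 95, and 16 rose in both, 76.2% of the B6 and 72.7% of the WSB list. From NPC to maturation, 97 fell in both (90.7% of the B6 and 75.8% of the WSB list) and 22 rose in both (57.9% and 81.5%). Only 1 member was called in opposite directions in each of these comparisons.

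Both members with and members without a KRAB signature fell. From NPC to axon cultures, 53 of 92 signature members fell and 6 rose in B6, and 44 fell and 6 rose in WSB. Without the signature, 42 fell and 15 rose in B6, and 51 fell and 16 rose in WSB. Among the members with little shared sequence, 56 of 129 fell and 17 rose in B6, and 65 fell and 14 rose in WSB.

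**Figure D2:**
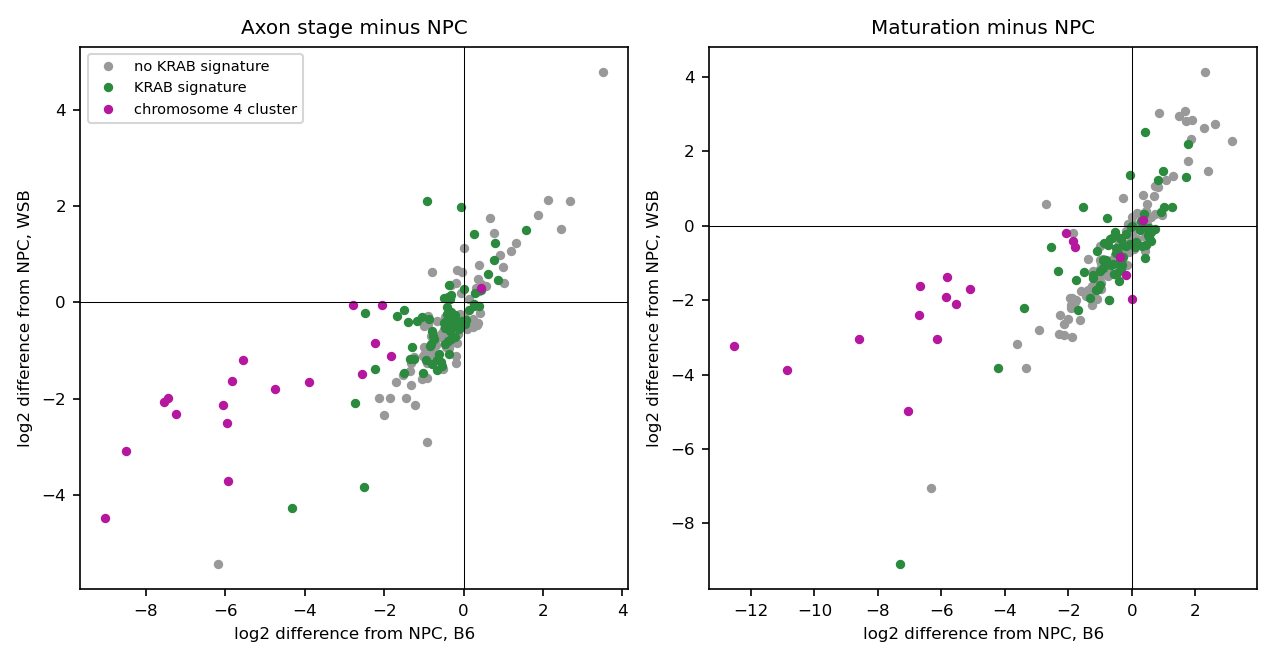
Log2 difference of each member from NPC cultures in B6 (x axis) and in WSB (y axis), control cultures, for the axon stage (left) and maturation (right). Grey points are members without a KRAB signature, green points members with it and magenta points the chromosome 4 cluster; most points lie below 0 on both axes, and the chromosome 4 cluster reaches further down in B6 than in WSB.

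Few members rose with stage, and those that did were mostly genes without a KRAB signature. Zfp853 was close to undetected in control NPC cultures, with a highest level of 0.35 CPM in B6 and 0.208 CPM in WSB. In uncut control axon cultures it read 3.6, 3.11, 3.48 and 3.26 CPM in B6 and 3.68, 4.87, 6.02 and 11.1 CPM in WSB. No axon library overlapped an NPC library. The difference was 3.52 ± 0.28 (SE, log2, adjusted p = 1.32e-06) in B6 and 4.79 ± 0.32 (adjusted p = 3.7e-07) in WSB. At maturation it lay between, at 0.772 to 1.55 CPM in B6 and 0.916 to 2.76 CPM in WSB.

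Zfp651, a factor with 7 zinc fingers, rose at a higher level. Its median was 24.4 CPM in control B6 NPC cultures (20.4 to 27.9) and 26.5 CPM in WSB (22.4 to 31.1). Uncut axon cultures read 98.7, 93.1, 82 and 74 CPM in B6 and 83.8, 99.6, 106 and 86.9 CPM in WSB. Maturation cultures lay in the same range, from 80.3 to 102.2 CPM over both strains, and the groups did not overlap with NPC cultures. The axon difference was 1.88 ± 0.16 (adjusted p = 1.76e-06) in B6 and 1.80 ± 0.16 (adjusted p = 3.22e-06) in WSB.

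Zfp641 rose too, from 2.2 to 5.17 CPM in control B6 NPC cultures to 26.9, 26, 23.1 and 25.5 CPM in uncut axon cultures (2.67 ± 0.23, adjusted p = 1.85e-06). In WSB it went from 3.47 to 7.25 CPM to 32.2, 22.2, 26.2 and 18.3 CPM (2.10 ± 0.23, adjusted p = 1.15e-05). Zfp704 was called higher at the axon stage and not at maturation. Its NPC levels were 53.5 to 96.3 CPM in B6 and 63.8 to 91.2 CPM in WSB. Uncut axon cultures read 277, 266, 193 and 185 CPM in B6 and 180, 174, 163 and 93.3 CPM in WSB, while maturation cultures read 60.1 to 83.5 and 41.8 to 74.6 CPM. The axon difference was 1.31 ± 0.18 (adjusted p = 5.82e-05) in B6 and 1.24 ± 0.19 (adjusted p = 0.000155) in WSB, and in WSB Zfp704 was called lower at maturation. The WSB axon estimate does not include the library at 93.3 CPM, which came from the third block.

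Genes of chromosome 2 were among those that rose at maturation. Zfp931 read 46.3, 40.1, 29.7 and 33.2 CPM in B6 and 53.8, 45.4, 32.6 and 30.3 CPM in WSB, against 5.57 to 9.41 and 5.1 to 8.22 CPM in NPC cultures (2.27 ± 0.21 with adjusted p = 1.1e-11 in B6, 2.64 ± 0.21 with adjusted p = 3e-13 in WSB). Zfp970 rose to 25.5, 28, 42.3 and 42.5 CPM in B6 and 120, 158, 92.1 and 79.7 CPM in WSB, from medians of 10.7 and 13.3 CPM. Both share sequence with neighbours (23.3% and 49.5% of windows), and the 16 genes linked to Zfp970 by shared windows summed to 67.9 CPM in B6 NPC and 188 CPM in B6 maturation cultures. Zfp612, which shares none, rose from 2.18 to 7.3 CPM in B6 to 16, 17.7, 15.8 and 13.8 CPM (1.77 ± 0.25, adjusted p = 9.15e-08), and in WSB from 4.72 to 7.79 CPM to 22.5, 30.8, 32.2 and 31.2 CPM (2.20 ± 0.25, adjusted p = 8.45e-10).

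Of 28 members listed for a known role, all tested, 17 fell and 4 rose from NPC to axon cultures in B6 (33.3% and 30.3% of all genes) and 16 fell and 3 rose in WSB (29.7% and 29.1%). At maturation 21 fell and 2 rose in B6 (35.1% and 36% of all genes), and 20 fell and 2 rose in WSB (34.2% and 37.8%). The list holds Zfp503, Zfp507, Zfp516, Zfp521, Zfp536, Zfp541, Zfp568, Zfp580, Zfp592, Zfp593, Zfp598, Zfp608, Zfp609, Zfp618, Zfp622, Zfp638, Zfp644, Zfp661, Zfp703, Zfp704, Zfp706, Zfp711, Zfp738, Zfp750, Zfp809, Zfp819, Zfp830 and Zfp932.

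Zfp516, a transcription factor known for promoting brown fat gene expression, had medians of 141 CPM (128 to 183) in B6 and 167 CPM (114 to 220) in WSB control NPC cultures. It read 23.3, 27.1, 36.8 and 37 CPM in B6 and 31, 31.3, 40.6 and 31.7 CPM in WSB at maturation. All NPC libraries lay above all maturation libraries. The difference was -2.26 ± 0.20 (adjusted p = 1.42e-12) in B6 and -2.40 ± 0.20 (adjusted p = 3.58e-13) in WSB. From NPC to axon cultures it fell as well, by 2.01 ± 0.17 on the log2 scale in B6 (adjusted p = 2.11e-06) and 2.33 ± 0.19 in WSB (adjusted p = 1.85e-06).

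Zfp568, a KRAB factor known for repressing a placental promoter of Igf2, had medians of 153 CPM (92.8 to 232) in B6 and 64.6 CPM (38.9 to 67.8) in WSB control NPC cultures. At maturation it read 15.5, 15, 13.2 and 15.9 CPM in B6 and 14.3, 18.9, 9.73 and 9.61 CPM in WSB. At maturation the control groups of the strains overlapped and Zfp568 was not called between them. No test of stage by strain was made. The stage difference was -3.41 ± 0.25 (adjusted p = 1.56e-14) in B6 and -2.21 ± 0.23 (adjusted p = 1.64e-10) in WSB, and the NPC strain difference was -1.39 ± 0.20 (WSB minus B6, adjusted p = 7.3e-06).

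Zfp618, which binds the hydroxymethylcytosine reader UHRF2, fell from 55.2 to 155 CPM in B6 and 110 to 202 CPM in WSB NPC cultures to 9.17 to 10.1 and 8.44 to 11.5 CPM at maturation (-3.33 ± 0.31 with adjusted p = 9.11e-12 and -3.84 ± 0.32 with adjusted p = 4.49e-13). Zfp521, a factor that drives neural fate in embryonic stem cells, fell at maturation by 1.92 ± 0.28 in B6 (adjusted p = 1.36e-07) and 2.14 ± 0.28 in WSB (adjusted p = 1.75e-08). Its uncut axon levels, 103, 143, 72.8 and 74.4 CPM in B6, overlapped the NPC range of 59.1 to 108.3 CPM. Among the genes that fell without a role given here, Zfp710 went from medians of 75.8 and 76.5 CPM in B6 and WSB to 7.76, 8.78, 12.3 and 12.6 CPM and 12.8, 12.6, 11 and 9.64 CPM at maturation. Zfp553 went from 88.5 and 90.4 CPM to 14.4, 18.3, 19.5 and 21 CPM and 10.5, 10.4, 15.7 and 13.7 CPM. Both pairs of groups were separate.

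The role members that rose at maturation, in both strains, were Zfp809 and Zfp541. From NPC to axon cultures, those called higher were Zfp541, Zfp704 and Zfp706 in both strains, and Zfp580 in B6 alone. Zfp809, the KRAB factor that recognises the primer binding site of murine leukaemia virus, read 11.7, 10.9, 15.5 and 16 CPM in B6 and 14.9, 13.3, 12.5 and 12.5 CPM in WSB at maturation. Its NPC levels were 6.2 to 10.7 CPM and 4.27 to 6.96 CPM. It rose by 0.82 ± 0.22 (log2, adjusted p = 0.00104) in B6 and 1.24 ± 0.22 (adjusted p = 4.86e-06) in WSB. Zfp541, known from male meiosis, rose at both later stages in both strains from levels under 0.5 CPM to at most 2.3 CPM.

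Genes of the corepressor machinery with which KRAB factors act were also counted. Of 20 such genes, 17 fell and 1 rose from NPC to axon cultures in B6 and 15 fell and 1 rose in WSB, where 33.3% and 29.7% of all genes fell. At maturation 19 fell in B6 and 18 in WSB, with none that rose, where 35.1% and 34.2% of all genes fell. The list holds Trim28, Setdb1, Atf7ip, Cbx1, Cbx3, Cbx5, Chd3, Chd4, Hdac1, Hdac2, Mbd3, Smarcad1, Morc3, Resf1, Dnmt1, Dnmt3a, Dnmt3b, Uhrf1, Atrx and Daxx. Trim28, the central corepressor, had a mean of 672 ± 50.0 CPM (SD, n = 6) in control B6 NPC cultures and 96.6 ± 9.48 CPM (n = 4) at maturation, a difference of -2.79 ± 0.12 (adjusted p = 1.26e-20), and -2.38 ± 0.12 (adjusted p = 4e-19) in WSB. Setdb1 fell by 1.23 ± 0.12 in both strains (adjusted p = 5.97e-11 in B6 and 5.33e-11 in WSB). The pluripotency list fell in parallel, with 9 of 10 genes lower at maturation in each strain, and its part in these results was not tested.

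Deletion of this cluster in mouse embryonic stem cells is known to release some endogenous retroviruses from silencing. The promoters of 5 members are shown because the cluster members changed together. They run from 250 bases before to 50 bases after the annotated start, 5′ to 3′ on the gene's strand, and come from RefSeq for build GRCm38.p6. Positions are chr4:145670447-145670746 (plus strand) for Zfp980, chr4:147553027-147553326 (plus) for Zfp985, chr4:147642459-147642758 (minus) for Zfp979, chr4:147809739-147810038 (minus) for Zfp984 and chr4:147848369-147848668 (minus) for Zfp933. Capitals mark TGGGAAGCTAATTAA, a stretch of 15 bases held by the promoters of 10 cluster members, more than any other stretch of that length (the next were held by 8).
Zfp980: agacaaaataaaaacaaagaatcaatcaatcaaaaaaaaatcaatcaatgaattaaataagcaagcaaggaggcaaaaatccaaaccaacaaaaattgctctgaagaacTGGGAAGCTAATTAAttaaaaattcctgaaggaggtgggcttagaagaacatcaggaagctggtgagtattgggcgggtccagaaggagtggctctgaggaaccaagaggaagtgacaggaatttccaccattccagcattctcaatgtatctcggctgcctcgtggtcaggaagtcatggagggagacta
Zfp985: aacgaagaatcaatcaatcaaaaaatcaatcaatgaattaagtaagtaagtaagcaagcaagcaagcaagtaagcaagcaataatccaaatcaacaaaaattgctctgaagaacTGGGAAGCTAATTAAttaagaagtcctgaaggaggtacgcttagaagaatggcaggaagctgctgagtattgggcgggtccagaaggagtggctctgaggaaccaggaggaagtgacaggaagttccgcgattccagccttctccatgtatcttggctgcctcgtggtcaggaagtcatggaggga
Zfp979: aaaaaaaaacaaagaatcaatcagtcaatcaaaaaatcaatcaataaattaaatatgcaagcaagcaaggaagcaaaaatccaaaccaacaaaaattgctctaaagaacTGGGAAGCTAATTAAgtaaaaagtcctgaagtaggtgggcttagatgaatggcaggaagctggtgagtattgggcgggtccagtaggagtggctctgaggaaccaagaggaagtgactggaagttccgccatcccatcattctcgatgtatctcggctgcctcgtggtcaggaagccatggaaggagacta
Zfp984: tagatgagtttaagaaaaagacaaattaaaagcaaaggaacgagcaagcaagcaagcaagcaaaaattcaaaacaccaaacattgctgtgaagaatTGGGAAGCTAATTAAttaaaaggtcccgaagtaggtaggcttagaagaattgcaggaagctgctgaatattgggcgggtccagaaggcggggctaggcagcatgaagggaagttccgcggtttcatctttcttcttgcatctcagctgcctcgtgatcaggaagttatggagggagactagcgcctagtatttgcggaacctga
Zfp933: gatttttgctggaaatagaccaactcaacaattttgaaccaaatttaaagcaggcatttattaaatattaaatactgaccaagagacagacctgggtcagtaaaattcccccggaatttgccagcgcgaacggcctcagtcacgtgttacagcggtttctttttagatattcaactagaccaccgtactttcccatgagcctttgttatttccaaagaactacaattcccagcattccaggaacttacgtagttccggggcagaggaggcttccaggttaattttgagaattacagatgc

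The motif begins 136 to 154 bases before the start in the 4 promoters that hold it. Searched on both strands, it was found in 12 of 32851 RefSeq promoters of the same length (0.0365%). Of the 170 members with a promoter entry, 10 held it, all in the chromosome 4 cluster, where 12 of the 18 members had an entry. The 2 cluster members whose window lacked these letters were Zfp933 and Zfp993. The stretch was chosen on the cluster, so its rarity elsewhere is a description, and it says nothing of a factor.

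In control NPC cultures the cluster summed to 210, 209, 191, 266, 379 and 764 CPM in B6 and to 54.4, 54.3, 85.6, 80.8, 84.6 and 107.3 CPM in WSB. The strains did not overlap, and the last B6 value, replicate 6, stood far above the others. At maturation the sum was 82.4 ± 3.10 CPM (SD, n = 4) in B6 and 43.7 ± 9.49 CPM (n = 4) in WSB, and in uncut axon cultures 49.9 ± 11.8 CPM (n = 4) and 48.3 ± 8.95 CPM (n = 4). The gap between the strains was thus widest at the NPC stage.

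**Figure D3:**
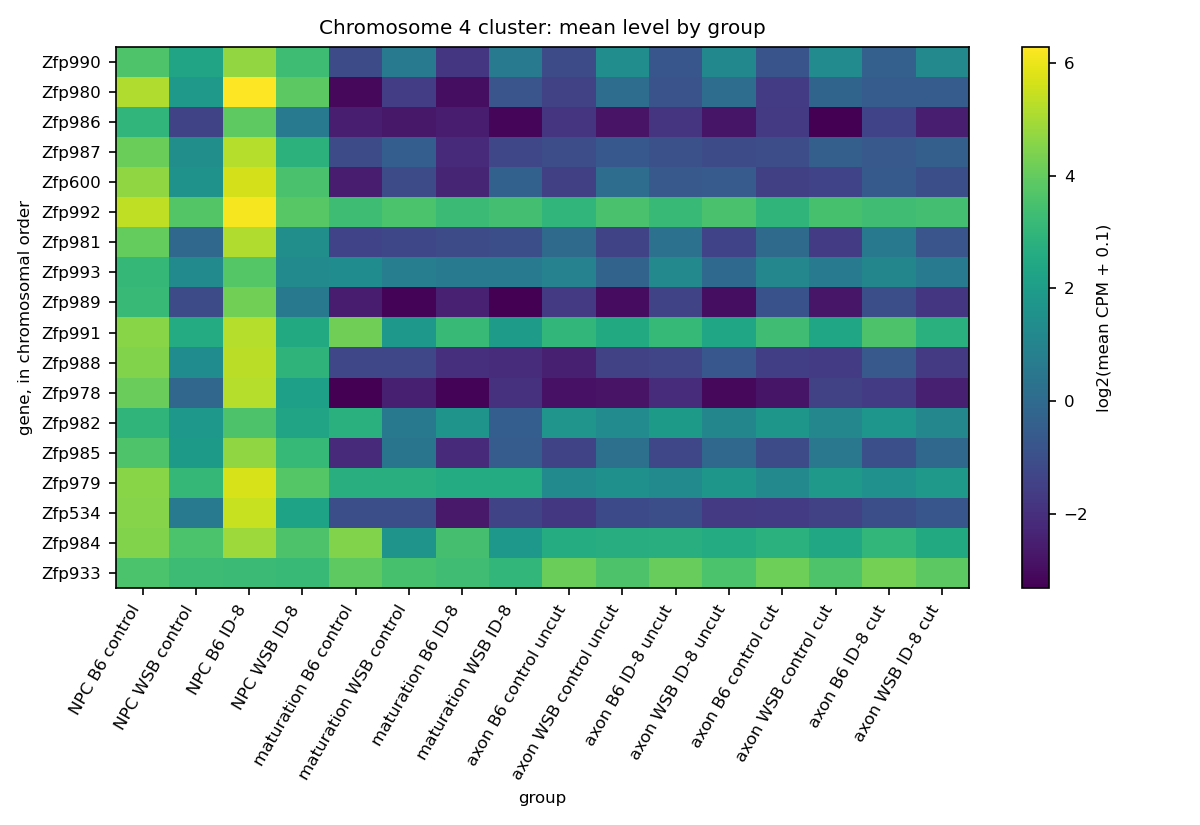
Mean level of the 18 members of the chromosome 4 cluster (vertical axis, in chromosomal order) in the 16 groups (horizontal axis), as log2(mean CPM + 0.1). The B6 NPC groups are brightest for most genes, with ID-8 above control, and Zfp933, at the end of the cluster, does not share that pattern.

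From NPC to axon cultures, 17 of the 18 cluster members fell in B6, with a median over the 18 of -5.69 (log2), and 13 fell in WSB, with a median of -1.72. Zfp978 had a median of 13 CPM (8.1 to 36.2) in control B6 NPC cultures and read 0.077, 0, 0 and 0.072 CPM in uncut axon cultures. In WSB its NPC level was already 0.179 to 1.59 CPM. Zfp600 went from 13.4 to 57.3 CPM in B6 NPC cultures to 0.126, 0.285, 0.347 and 0.27 CPM (-7.24 ± 0.47, adjusted p = 3.61e-07), and in WSB from 1.51 to 5.21 CPM to 0.436, 0.906, 1.03 and 1.58 CPM (-2.32 ± 0.43, adjusted p = 0.00062). At maturation 14 of 18 fell in B6 and 13 in WSB.

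The member that went the other way in B6 was Zfp933, a gene at the edge of the cluster. Its promoter window lacked the motif, but so did that of Zfp993, which fell in B6 with the others. The median of Zfp933 was 10.9 CPM in B6 and 9.73 CPM in WSB control NPC cultures. It read 16.7, 15.3, 17.2 and 20.4 CPM in B6 uncut axon cultures, a rise of 0.43 ± 0.15 (adjusted p = 0.0267), and 13.2, 11.7, 12 and 11.4 CPM in WSB (0.30 ± 0.16, adjusted p = 0.133).

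The cluster moved with the pluripotency markers across groups of the NPC stage. The summed level of the 10 markers was 477 to 1310 CPM in control B6, 41.9 to 76.5 CPM in control WSB, 1075 to 2519 CPM in B6 with ID-8 and 87.4 to 473 CPM in WSB with ID-8. It was 24.5 to 36.5 CPM in B6 and 12.3 to 19.2 CPM in WSB control cultures at maturation. All 10 markers were detected in every NPC group by their mean level, and all 10 were lower in control WSB than in control B6 NPC cultures. Their part in the cluster's differences was not tested.

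Strain differences among the members were most numerous at the NPC stage. Both strains were counted on GRCm38, the reference build. Whether WSB sequence that differs from it lowers the WSB counts was not tested, here or for the single members below. In control cultures 60 of 200 members tested were higher in WSB and 49 lower, while 19.7% of all genes were higher and 25% lower. Changes of 2-fold or more were 5 higher and 34 lower, and the median difference over members was 0.13. The first library block alone, with 3 libraries per group, gave 19 higher and 34 lower, and the second, also with 3, gave 7 higher and 31 lower. Over all genes these fits called 4213 and 2794. With ID-8, 97 members were higher and 54 lower (32.4% and 33.9% of all genes). Of the control calls, 56 of 60 higher and 43 of 49 lower were also called in the same direction with ID-8, 57.7% and 79.6% of the ID-8 lists.

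The chromosome 4 cluster made up a large share of the lower calls. At the NPC stage 17 of its 18 members were lower in control WSB, with a median of -2.23, and 17 were lower with ID-8. Without B6 control replicate 6, chosen for removal after its value was seen, 15 were lower with a median of -1.95, and the count over all members was 45 higher and 43 lower. The sum over Zfp978 and the 5 genes it shares windows with was 151 ± 104.5 CPM (SD, n = 6) in B6 and 20.8 ± 8.09 CPM (n = 6) in WSB, a sum that no split of reads among these genes can change. At maturation 4 of 15 cluster members tested were higher and 3 lower in control WSB. In uncut control axon cultures 4 of 17 were higher and 1 lower, and 4 and 3 without the library that went against its label.

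At maturation 11 of 193 members were higher and 23 lower in control WSB (7.38% and 7.39% of all genes), and 13 were higher and 20 lower with ID-8 (9.28% and 7.97%). In the axon stage, 11 of 197 were higher and 12 lower in uncut control cultures (5.68% and 7.56%), 9 and 13 in uncut ID-8 cultures (4.71% and 5.14%), and 14 and 21 in cut control cultures (7.46% and 8.78%). Without the library that went against its label, whose group is in none of these but shares their estimate of the spread, the counts became 14 and 16 (7.5% and 8.94% of all genes), 11 and 14 (7.26% and 6.98%), and 19 and 24 (9.68% and 9.9%). In cut ID-8 cultures, which hold that library, 1 member was higher and 1 lower (2.08% and 1.16%), Zfp963 and Zfp973. Without it, 6 were higher and 16 lower, against 6.44% and 6.08% of all genes. Other single libraries moved these counts too: uncut control cultures gave 14 calls without WSB replicate 2 and 15 without WSB replicate 3 or B6 replicate 4. Uncut ID-8 cultures gave 6 calls without WSB replicate 2, 12 without B6 replicate 3, and 13 without B6 replicate 4 or WSB replicate 3. In cut ID-8 cultures, leaving out any other library gave 0 calls, or 1 without B6 replicate 1.

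A small set of members was called between the strains in most comparisons. Over the 8 strain comparisons, 3 members were called higher in WSB in at least 7 (Zfp963, Zfp560 and Zfp949) and 4 lower in at least 7 (Zfp738, Zfp965, Zfp973 and Zfp773). Another 13 members were called in both directions and 27 in none. These counts were not made over all genes, so whether they are particular to the members was not tested. With the axon fits that leave out the library against its label, the same 3 were higher in at least 7, Zfp541, Zfp951 and Zfp982 joined the 4 lower ones, and 14 members were called in both directions.

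Zfp738, a KRAB gene with 20 zinc fingers at the end of the chromosome 13 cluster (bases 67658685 to 67687071), was lower in 7 of the 8 comparisons. At maturation it read 32, 30.4, 29.8 and 30.3 CPM in control B6 and 0.389, 0.142, 0.246 and 0.527 CPM in control WSB (-6.51 ± 0.38, adjusted p = 5.97e-09). In cut ID-8 axon cultures the difference was -2.17 ± 0.88 (adjusted p = 0.165) with all libraries and -6.82 ± 0.32 (adjusted p = 2.9e-13) without the library that went against its label. The maturation groups were separate by far, and no control WSB library of NPC or maturation cultures exceeded 0.661 CPM.

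Zfp773 read 1.4, 1.01, 2 and 2.28 CPM in control B6 and 0.508, 0.279, 0.349 and 0.288 CPM in control WSB at maturation (-2.23 ± 0.37, adjusted p = 0.000732). In uncut control axon cultures it read 5.36, 5.8, 5.66 and 4.98 CPM and 0.942, 0.501, 0.354 and 0.249 CPM (-3.14 ± 0.63, adjusted p = 0.00198, and -3.21 ± 0.34, adjusted p = 3.27e-07, without the library against its label). The B6 groups lay above the WSB groups in both. Zfp951, a KRAB gene of chromosome 5 with little shared sequence, read 6.13, 5.63, 5.66 and 5.52 CPM in uncut B6 and 1.14, 1.61, 2.04 and 2.62 CPM in uncut WSB axon cultures (-1.57 ± 0.42, adjusted p = 0.0162, and -1.64 ± 0.28, adjusted p = 0.000253, without that library). At the NPC stage its difference was -1.91 ± 0.15 (adjusted p = 1.78e-09) and in control maturation cultures it was not called (-0.92 ± 0.30, adjusted p = 0.0515). It was lower in WSB maturation cultures with ID-8 (-1.42 ± 0.31, adjusted p = 0.00501).

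Zfp973 and Zfp965 belong to a family of near copies on chromosome 2 (84.7% and 96.3% of windows shared). Zfp973 read 14.2, 11, 12.1 and 13.4 CPM in control B6 and 1.32, 1.44, 0.688 and 0.648 CPM in control WSB at maturation, and Zfp965 10.2, 7.21, 6.48 and 7.12 CPM against 0.248, 0.346, 0.16 and 0.172 CPM. For the 12 genes that share windows with Zfp973, itself included, the sum went the other way at maturation, with 163 CPM in B6 and 233 CPM in WSB, while at the NPC stage it was 58.7 and 40.0 CPM. The single-gene differences are therefore uncertain as to which copy the reads came from.

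Zfp963 on chromosome 8 was higher in WSB in all 8 comparisons, with all libraries in. At the NPC stage its median was 6.22 CPM in control B6 (4.42 to 8.08) and 21.1 CPM in control WSB (17.3 to 25.5), a difference of 1.87 ± 0.17 (adjusted p = 9.09e-09). At maturation it read 4.03, 4, 3.92 and 3.49 CPM in B6 and 9.64, 11.1, 13.5 and 11.5 CPM in WSB (1.56 ± 0.19, adjusted p = 2.85e-05). Both stages separated the strains fully. It shares 39.4% of its windows with 1 other gene, and the sum over both was 6.46 and 21.3 CPM at the NPC stage.

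Zfp560 and Zfp949 share almost no sequence with other genes. Zfp560, a KRAB gene with 15 fingers, read 4.13, 3.13, 1.61 and 1.98 CPM in B6 and 9.22, 9.04, 6.21 and 6.27 CPM in WSB control cultures at maturation (1.49 ± 0.28, adjusted p = 0.00169). Zfp949 read 16, 13.9, 12.5 and 13.3 CPM in B6 and 46.9, 52.7, 32.1 and 27.9 CPM in WSB (1.51 ± 0.20, adjusted p = 6.71e-05). Neither pair of groups overlapped. In NPC cultures Zfp949 did overlap between strains, at 12.9 to 26.7 and 12.1 to 32.4 CPM (0.48 ± 0.17, adjusted p = 0.0313).

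**Figure D4:**
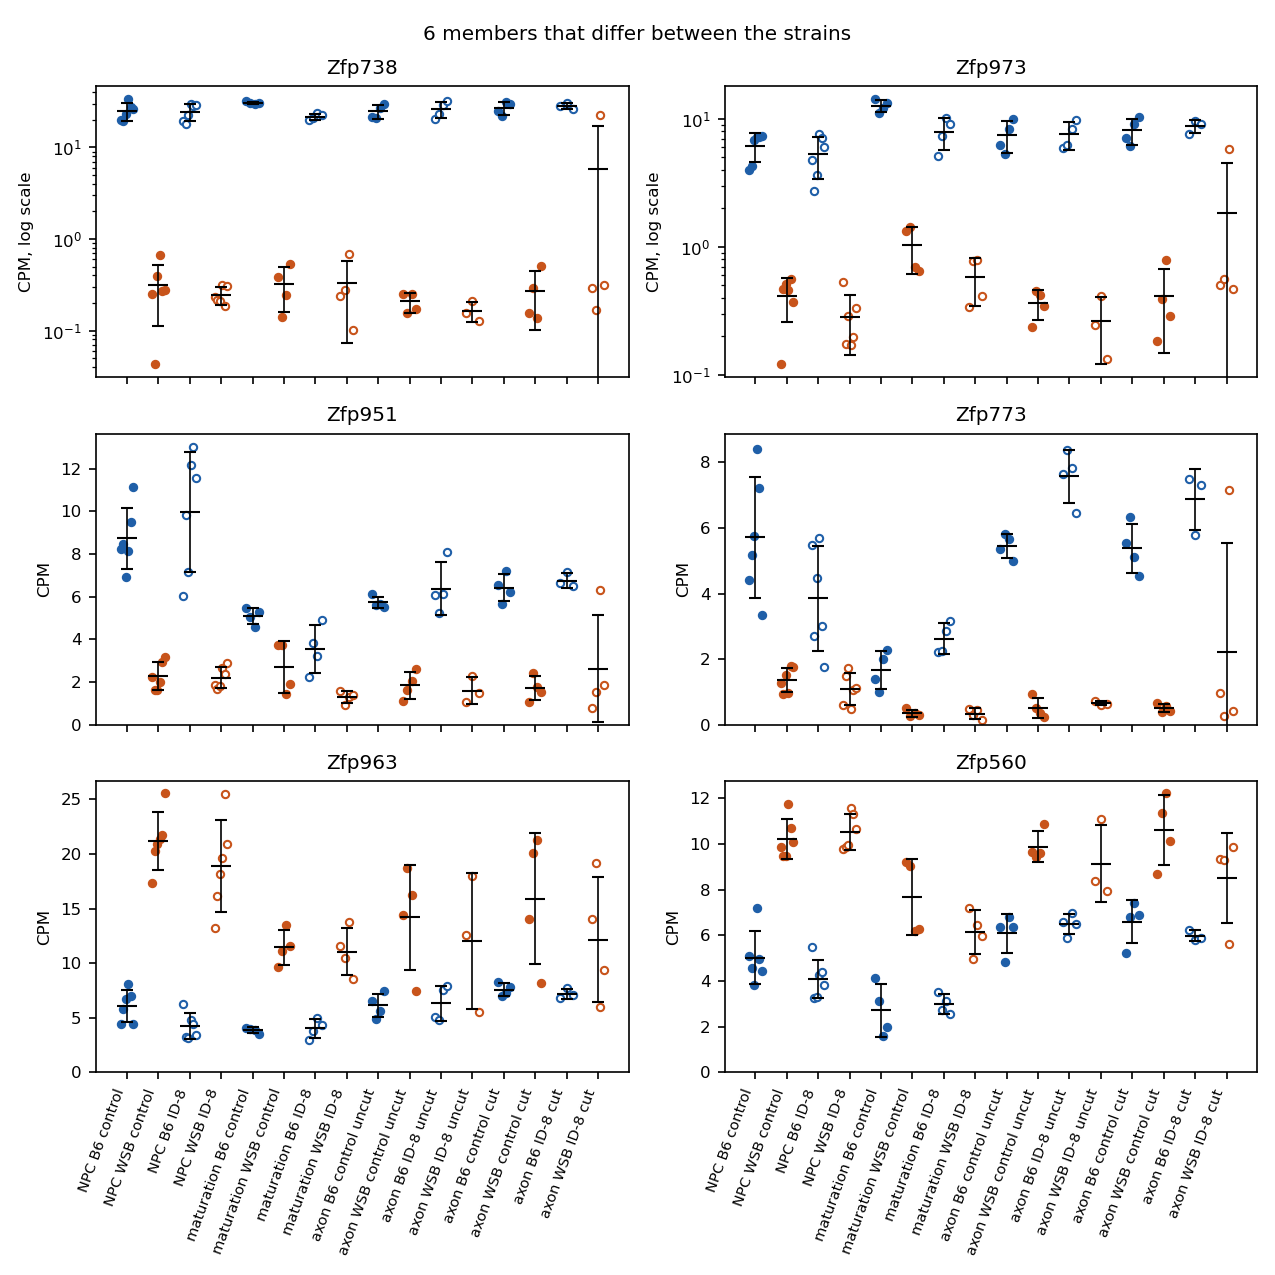
Level in CPM of 6 members per library in the 16 groups (blue B6, orange WSB, filled control, open ID-8; log scale for Zfp738 and Zfp973; bars are mean ± SD). Zfp738, Zfp973, Zfp951 and Zfp773 are lower and Zfp963 and Zfp560 higher in WSB, and in the last group 1 library labelled WSB lies at the B6 level, with 22.6 CPM for Zfp738.

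Zfp990 in the chromosome 4 cluster was among the members called in both directions. At the NPC stage it was lower in control WSB (-1.21 ± 0.34, adjusted p = 0.0073), with 5.78 to 30.5 CPM in B6 and 1.96 to 7.92 CPM in WSB. At maturation it read 0.465, 0.266, 0.31 and 0.408 CPM in B6 and 1.84, 1.87, 1.5 and 0.795 CPM in WSB (2.05 ± 0.47, adjusted p = 0.00828). In uncut axon cultures it read 0.533, 0.205, 0.439 and 0.322 CPM and 3.15, 2.42, 2.53 and 1.99 CPM (2.73 ± 0.52, adjusted p = 0.00119, and 2.78 ± 0.37, adjusted p = 1.13e-05, without the library against its label). The later groups did not overlap, and no test of stage by strain was made.

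Of the 28 role members, 3 were higher and 9 lower in control WSB at the NPC stage, where 19.7% of all genes were higher and 25% lower. Zfp711, a transcription factor linked to X-linked intellectual disability in humans, had medians of 15.7 CPM in B6 (11.3 to 37.6) and 41.2 CPM in WSB (29.9 to 52.2), with a difference of 1.13 ± 0.30 (adjusted p = 0.00412). Zfp521 was higher by 0.55 ± 0.19 (adjusted p = 0.0235). The neuronal marker sum was 1925 to 5151 CPM in these B6 and 3508 to 5331 CPM in these WSB cultures, and its part was not tested.

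At the NPC stage, more members were called for ID-8 in B6 than in WSB. In B6, 20 of 200 members rose and 59 fell (18.3% and 21.8% of all genes), with a median of -0.18. In WSB 15 rose and 7 fell (4.65% and 4.81%). Of the members that rose, 11 did so in both strains (55% of the B6 and 73.3% of the WSB list): Zfp553, Zfp600, Zfp622, Zfp819, Zfp978, Zfp980, Zfp981, Zfp985, Zfp986, Zfp987 and Zfp989. The 4 that fell in both were Zfp592, Zfp641, Zfp667 and Zfp791, 6.8% of the B6 and 57.1% of the WSB list. Of the genes of Zfp1 to Zfp499, 12 of 162 rose and 59 fell in B6 and 4 rose and 5 fell in WSB.

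These counts rest on both library blocks together. The first block alone called 3 members in B6 and 2 in WSB (1379 and 166 of all genes). These became 17 and 4 members (2867 and 184 of all genes) once its replicate numbers, which pair control and ID-8 cultures, entered as a block. The second block alone called 25 members in B6 (3880 of all genes) and 0 in WSB. In WSB, 26 members had an unadjusted p under 0.05 and 2 genes of the whole table were called. The difference of the responses between strains was called for 0 of 200 members, against 3.17% of all genes, with 45 members at an unadjusted p under 0.05 (edgeR) and 8 called by DESeq2. With culture sets as a replicate block, a fit chosen after seeing the data, it was called for 46 members and 3334 of all genes. In the second block only 2 of 3 pairs per strain correlated above 0.1, so these sets were not taken as the design.

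Most members that rose were Zfp819 and members of the chromosome 4 cluster. Zfp553 and Zfp622, outside the cluster, also rose in both strains. Zfp819, a factor studied in mouse embryonic stem cells as a repressor of transposable elements, rose by 1.70 ± 0.25 in B6 (log2, adjusted p = 3.79e-05). Its ranges there were 2.04 to 3.64 CPM without and 5.72 to 13.1 CPM with ID-8, which did not overlap. In the cluster, 12 of 18 members rose and none fell in B6, and 10 rose and none fell in WSB, with medians of 1.00 and 1.34. Without B6 control replicate 6, 17 of 18 rose in B6, with a median of 1.32, and the member count was 25 that rose and 59 that fell.

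Per library, the cluster summed to 269, 368, 402, 620, 1044 and 1103 CPM in B6 NPC cultures with ID-8 and to 58.8, 111, 136, 162, 75.5 and 258 CPM in WSB. Both ranges overlapped those of the controls, and the first 3 libraries of each group, from the first block, were the lower ones in B6. Zfp980 had medians of 24.9 CPM without and 69.1 CPM with ID-8 in B6 (1.22 ± 0.38, adjusted p = 0.0142) and 3.32 and 12.6 CPM in WSB (2.07 ± 0.40, adjusted p = 0.00244). Pluripotency markers moved the same way, with 7 of 10 higher and 1 (Dppa3) lower in B6 and 9 of 10 higher in WSB. Trim28 also rose, by 0.39 ± 0.07 in B6 (adjusted p = 0.000204) and 0.27 ± 0.07 in WSB (adjusted p = 0.0144), and Dnmt3b rose by 2.55 ± 0.30 (adjusted p = 4.51e-06) and 1.68 ± 0.30 (adjusted p = 0.00119). Their part in these changes was not tested.

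**Figure D5:**
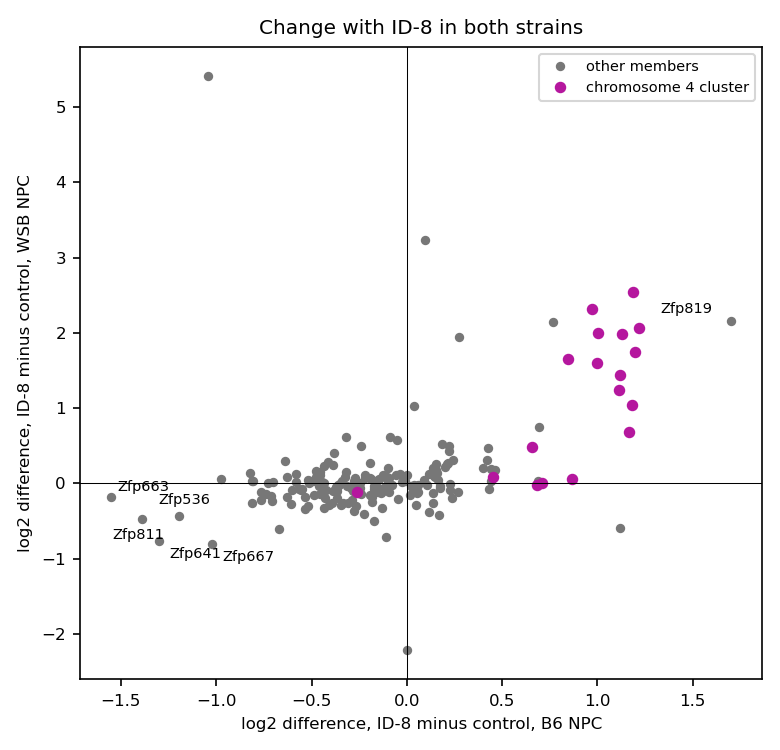
Log2 difference, ID-8 minus control, of each member in NPC cultures of B6 (x axis) and WSB (y axis), with the chromosome 4 cluster in magenta. Most cluster members and Zfp819 lie above 0 on both axes, while the members named at the left fell in B6.

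Among the members that fell, Zfp667 had the smallest p. This KRAB gene had a median of 29.9 CPM (27.8 to 37.5) in control and 14 CPM (10 to 18.2) in ID-8 cultures of B6, and 33.5 CPM (25.1 to 38.1) and 18.5 CPM (16 to 20.8) in WSB. Neither strain's groups overlapped. It fell by 1.02 ± 0.11 in B6 (adjusted p = 1.93e-06) and 0.81 ± 0.11 in WSB (adjusted p = 0.000174). Zfp641, which rose at the later stages, went from 2.2 to 5.17 CPM in control to 0.612 to 2.15 CPM in ID-8 cultures of B6 (-1.30 ± 0.22, adjusted p = 0.000159). In WSB it went from 3.47 to 7.25 CPM to 1.73 to 4.56 CPM (-0.77 ± 0.22, adjusted p = 0.0271).

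Of the role members, 4 rose and 10 fell in B6 (18.3% and 21.8% of all genes), and 2 rose and 1 fell in WSB (4.65% and 4.81%). Among them Zfp536, a repressor of neuronal differentiation in cultured cells, had 36.7 to 74.3 CPM in control and 6.72 to 34.5 CPM in ID-8 cultures of B6 (-1.19 ± 0.28, adjusted p = 0.00199), with no overlap. In WSB its ranges were 51.5 to 87 and 33.6 to 61.1 CPM, which overlapped. Zfp521, Zfp703 and Zfp503, the last 2 of which form the NET family of developmental repressors, fell in B6 too. Zfp618 fell by 0.98 ± 0.28 (adjusted p = 0.0092) and Zfp711 by 0.81 ± 0.30 (adjusted p = 0.0362). The neuronal marker sum in these B6 cultures was 1925 to 5151 CPM without and 334 to 2537 CPM with ID-8, against 3508 to 5331 and 3276 to 6364 CPM in WSB, and its part was not tested.

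Role members that rose with ID-8 in B6 included Zfp622, a factor of large ribosomal subunit maturation (0.42 ± 0.09, adjusted p = 0.000686), and Zfp593, whose yeast counterpart takes part in ribosome assembly (0.46 ± 0.12, adjusted p = 0.00513). Zfp622 rose in WSB as well (0.31 ± 0.09, adjusted p = 0.0245). Zfp809 rose in B6 by 0.69 ± 0.17 (adjusted p = 0.00253), with ranges of 6.2 to 10.7 and 7.56 to 17 CPM that overlapped.

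At maturation most members called for ID-8 in B6 fell, and most of these carried the KRAB signature. The median difference over members was similar in the strains, at -0.14 (log2) in B6 and -0.11 in WSB. In B6, 3 of 193 members rose and 27 fell (7.71% and 9.41% of all genes), and 20 of the 27 carried the signature, of 86 such members tested. The cluster of 14 on chromosome 17 gave 7 of them. Zfp943, in that cluster, read 20.9, 22.4, 22.6 and 23.9 CPM in control and 8.82, 8.89, 12.8 and 11.1 CPM in ID-8 cultures (-1.07 ± 0.15, adjusted p = 0.000265). Its neighbour Zfp758 read 9.88, 10.7, 13.9 and 13.5 CPM and 3.2, 3.26, 7.21 and 4.95 CPM (-1.32 ± 0.28, adjusted p = 0.00415). Both sets of libraries were separate. The chromosome 17 cluster summed to 203 ± 7.32 CPM (SD, n = 4) in control and 127 ± 23.4 CPM (n = 4) in ID-8 cultures.

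Zfp568 and Zfp809 also fell with ID-8 in B6 maturation cultures. Zfp568 went from 15.5, 15, 13.2 and 15.9 CPM to 6.63, 7.63, 7.91 and 7.86 CPM (-0.95 ± 0.20, adjusted p = 0.00404). Zfp809 went from 11.7, 10.9, 15.5 and 16 CPM to 4.16, 4.97, 9.66 and 8.79 CPM (-0.94 ± 0.24, adjusted p = 0.0131). In NPC cultures of this strain Zfp809 had risen with ID-8. Leaving out 1 library at a time gave 14 to 33 members called, with 14 without ID-8 replicate 2, 17 without ID-8 replicate 1 and 18 without control replicate 1 or 4.

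In WSB at maturation 1 of 193 members fell with ID-8 and 0 rose in edgeR (3.03% and 2.86% of all genes). DESeq2 called 6 lower and 2 higher. The edgeR call was Zfp970, at 120, 158, 92.1 and 79.7 CPM in control and 70.6, 57.2, 60.7 and 31.3 CPM in ID-8 cultures (-0.97 ± 0.27, adjusted p = 0.048). It was still called in only 2 of the 8 fits that leave out 1 library, those without control replicate 4 or ID-8 replicate 1. The difference between the strains' responses was called for 0 members (0.46% of all genes), with 18 at an unadjusted p under 0.05 in edgeR and 4 called by DESeq2 (Zfp758, Zfp947, Zfp984 and Zfp994, all with a lowering in B6 that was smaller or absent in WSB).

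At the axon stage no member was called for ID-8 in the fit without culture sets. In edgeR, 0 of 197 members were called in uncut B6, cut B6, uncut WSB and cut WSB cultures, and 0% of all genes in each. At an unadjusted p under 0.05 there were 5, 3, 10 and 16 members, and DESeq2 called 0, 0, 0 and 1. The last was Zfp973, higher with ID-8 in cut WSB cultures, a value that rests on the library that went against its label. Without that library 5, 4, 10 and 6 members had an unadjusted p under 0.05 and 0 were called in each comparison. In B6, where culture sets pair the libraries, a fit with the set as a block called 1 member in cut cultures, Zfp703 (0.84 ± 0.16, adjusted p = 0.00961), and 0 in uncut cultures. Over all genes it called 275 and 226. In WSB 19 of 21 pairs correlated above 0.1, so its sets were not taken as the design. There the same fit, with all libraries in, called 3 members each in uncut and cut cultures (569 and 346 of all genes).

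Axotomy gave no call either. Between cut and uncut control cultures, 0 of 197 members were called in B6 and in WSB by edgeR, as were 0% of all genes, and DESeq2 called 0 members in each. At an unadjusted p under 0.05 there were 1 and 10 members, and as many without the library against its label. In B6, where culture sets pair the libraries, the edgeR fit with the set as a block also called 0 members and 0 of all genes. In it, 4 members had an unadjusted p under 0.05. In WSB, where the sets were not taken as the design, the same fit called 0 members and 1 of all genes, with 22 members under 0.05. The median difference over members was 0.002 (log2) in B6 and -0.06 in WSB.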

How the data were processed

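Neural cultures from embryonic stem cells of 2 mouse strains were profiled by stranded polyA RNA-seq. The deposited table holds expected counts per gene without scaling, made by the authors with Bowtie2, RSEM, featureCounts and limma on GRCm38, per the submitters' processing notes, with versions and annotation release not given in the sources used here. RSEM divides reads that map to several genes by estimated abundance, which bears on near-identical paralogs. Runs of the 6 libraries sequenced repeatedly were summed, which gave 70 libraries from 76 samples, and counts were rounded to whole numbers.

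Each stage was fitted over all of its genes in edgeR 4.0.16 (R 4.3.3) with TMM factors, filterByExpr and the robust quasi-likelihood test. The library block of the labels was a term for NPC and axon libraries, and the third block joins 2 sequencing batches. P-values were adjusted by Benjamini-Hochberg over all genes tested, and a call needs an adjusted p under 0.05. Where no tool is named beside an adjusted p, it is edgeR's. Errors are SE for log2 differences and SD for levels. The fits were tested on simulated counts. DESeq2 1.42.0, other scalings, filters, blocks and leaving out replicates were the alternatives.

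The KRAB signature, L[YFCH].[DEN]VM.E[NT] near the protein's start, was searched in translated GENCODE coding sequences of the same build, not in RefSeq proteins as planned. Named members were, per comparison and direction, the 8 with the smallest p among called members with 2-fold changes and a mean log2 CPM of at least 0, plus members with known roles. Not all are printed, and a few were named after their values were seen. Members and lists were chosen with earlier results of these data known. Zfp804a and Zfp804b do not match the symbol rule.

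Replicate numbers paired control and ID-8 libraries in the first NPC block, where all 3 pairs of each strain correlated above 0.1 (lowest 0.108 in B6 and 0.13 in WSB). Culture sets in the titles paired the B6 axon libraries (21 of 21 pairs, lowest 0.447). Leaving out NPC B6 control replicate 6, leaving out the library that went against its label (replicate 3 of cut WSB axon cultures with ID-8) from all axon fits, and pairing by culture set in both NPC blocks were chosen after seeing the data.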

Additional observations from a re-analysis of the deposited data

Results flagged for a closer look

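A library was singled out where it stood farther from its group than Dixon's 95% limit allows. Of 237 groups tested over 17 quantities, 15 had such a library, and chance alone gives about 1 in 20. The cause was not tested for any of them.

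In cut WSB cultures with ID-8, the library labelled replicate 3 read 22.6 CPM for Zfp738, against 0.167 to 0.312 in the other 3, 5.85 CPM for Zfp973, against 0.468 to 0.559, and 943 CPM for the sum of the KRAB signature members, against 863 to 875. For the chromosome 4 cluster, NPC B6 control replicate 6 read 764 CPM, against 191 to 379 CPM in the other 5. Zfp853 read 12.8 CPM in cut control WSB replicate 4, against 4.37 to 5.38, and in that library, which is the group's only one from the third block, Zfp978 read 0.98 CPM, against 0 to 0.067.

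For Zfp516, maturation WSB control replicate 3 read 40.6 CPM (others 31.0 to 31.7), maturation B6 ID-8 replicate 1 read 21.4 CPM (30.9 to 32.3) and uncut B6 control replicate 2 read 29.1 CPM (39.5 to 41.6). Zfp553 read 109 CPM in NPC B6 control replicate 3 (83.3 to 92.7) and 72.7 CPM in NPC B6 ID-8 replicate 6 (at least 101). Zfp667 read 37.5 CPM in NPC B6 control replicate 4 (27.8 to 30.4), 16.9 CPM in maturation WSB ID-8 replicate 3 (9.91 to 10.5) and 16.3 CPM in cut B6 control replicate 2 (all others at 17.7). Zfp978 read 0.03 CPM in maturation B6 ID-8 replicate 1, where the others were at 0.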

How the results depend on the processing

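Of the counts of members called, 266 stayed within 1.5 times the reported count under an alternative and 56 moved further. Of the values of named members, 797 kept their side of the threshold and 52 were no longer called, and none changed sign. The causes were not tested.

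With DESeq2 the calls were 8 for the difference of the ID-8 response between strains at the NPC stage and 4 at maturation, 8 for ID-8 in WSB maturation cultures, 13 for strain in cut ID-8 axon cultures and 1 for ID-8 in cut WSB cultures. With library totals alone, ID-8 gave 3 calls in WSB maturation cultures and strain 0 in cut ID-8 cultures. Without the filter on low counts, ID-8 gave 18 and 0 calls in B6 and WSB at maturation, and strain 1 in cut ID-8 cultures, as it did with first sequencing runs only. The first NPC block alone gave 53 and 95 calls for strain in control and ID-8 cultures and 3 and 2 for ID-8 in B6 and WSB, and the second 38 for strain in control cultures and 25 and 0 for ID-8. Without the library block, ID-8 gave 13 calls in WSB NPC cultures, and strain gave 15, 13, 22 and 0 calls in uncut control, uncut ID-8, cut control and cut ID-8 axon cultures. The second block alone gave 0 in the last.

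With the replicate number as a block, the first NPC block gave 17 and 4 calls for ID-8 in B6 and WSB. Culture sets as a replicate block gave 46 calls for the NPC difference of responses, an alternative chosen after seeing the data, where 2 of 3 pairs per strain in the second block correlated above 0.1. In axon cultures they gave 1 call for ID-8 in cut B6 and 3 each in uncut and cut WSB cultures. Of the WSB pairs, 19 of 21 correlated above 0.1, a check not repeated without the library that went against its label. The culture experiment as a replicate block at maturation gave 55 calls for strain in control cultures, 52 and 9 for ID-8 in B6 and WSB, and 4 for the difference of responses. There 41 of 48 pairs correlated above 0.1, but not all, so the pairing is a hint from the data and not taken as the design. The block changed no other count by over 1.5 times.

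Leaving out 1 library at a time gave 14 to 33 calls for ID-8 in B6 and 0 to 2 in WSB maturation cultures, and for strain 14 to 30 in uncut control, 6 to 25 in uncut ID-8 and 0 to 22 in cut ID-8 axon cultures. The highest strain counts were those without the library that went against its label. Depth limits the lowest members, 10 of which reached 1 CPM in no library.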
